A study of Mus musculus with 6 samples.

Results

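The transcriptome of intestinal crypts 3 days after abdominal irradiation (AIR) was set against that of crypts from mice without abdominal irradiation (Control). All mice were of the C57BL/6 strain, and each group held 2 libraries, replicates 1 and 3 of AIR and replicates 2 and 3 of Control, chosen by sample title. These are 4 of the 6 RNA-seq libraries of the study, whose remaining 2 came from crypts of irradiated mice treated with MPLA, an agonist of Toll-like receptor 4. These 2 were not part of the contrast, but entered the choice of tested genes, the shared estimate of the spread and the principal components. Scaling and the GC correction, used as alternatives, drew on them too. The dose of radiation is not given in the sources used here. Of 21878 genes in the files, the 10415 with at least 1 FPKM (fragments per kilobase of transcript, scaled to the mapped fragments of the library) in at least 2 of the 6 libraries were tested. Whether the replicates are separate mice is not stated in the labels, so the p-values rest on a spread between samples that may be technical only.

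Crypts are the proliferative units of the intestinal epithelium. Stem cells at the crypt base, held by Wnt and Notch signals and neighboured by antimicrobial Paneth cells, give rise to dividing progenitors, and these become absorptive enterocytes, mucus-secreting goblet cells, hormone-secreting enteroendocrine cells and chemosensory tuft cells. Ionising radiation breaks DNA, activates p53 and kills dividing crypt cells, and surviving cells can repopulate the crypt through a transient programme that shares genes with the fetal intestine.

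Pairs of values below run by replicate number, and a log2 fold is AIR over Control on log2(FPKM + 1), a scale that understates the change of low genes. The epithelial genes behind the tissue label were high in every library. Epcam, an epithelial adhesion molecule, had 591 and 509.7 FPKM in AIR, against 672 and 611 FPKM in Control, and Krt8, a keratin of simple epithelia, had 989 and 883 FPKM in AIR, against 1023 and 1252 FPKM in Control. None of the 17 listed genes of fibroblasts and smooth muscle reached the filter. The libraries were less alike than their labels imply in 1 case: Control replicate 2 has other values in the table of the whole series than in its own file, with 14 values above 0 shared by both within 1e-06, whereas each of the other 5 libraries has 21878 of 21878 equal values. The own file was used, and the series-table values were an alternative. Across tested genes Pearson's r on the log scale was 0.982 between the AIR libraries and 0.972 between the Control libraries, and 0.997 between Control replicate 3 and the series-table values of Control replicate 2. On the first principal component of the 6 libraries, with 56.7% of the variance, AIR lay at 40.7 and 37.3 and Control at -10.0 and -34.1. In bulk RNA fewer cells of a type and less RNA per cell cannot be told apart.

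Irradiated crypts differed from unirradiated crypts in 2786 of 10415 tested genes (26.7%) at a limma adjusted p under 0.05. Of these 838 (8.05%) were higher and 1948 (18.7%) lower in AIR, and 394 and 472 of them changed at least 2-fold in these directions. The counts of each list below are to be read beside these shares of all tested genes. Counts under an alternative are to be read beside that alternative's own totals, which moved as well. Using the series-table values of Control replicate 2, for instance, 2606 of 10405 tested genes rose and 3884 fell, so a list count that moves may only follow the totals. Both AIR libraries lay above both Control libraries in 2317 genes (22.2%) and below both in 4340 (41.7%). Lack of overlap was thus common, and it was required of the largest rises and falls. Where it is given below for called genes, it describes their values and is no support beyond the call. The median log2 fold over all tested genes was -0.13. With median-ratio (RLE) scaling, which brings that median to -0.00207, the calls were 1158 higher and 1184 lower, so the share of calls that are lower was 50.6% in place of 69.9%. The direction also went with base composition. In the quintile of genes with transcripts of 31.0% to 43.8% GC, 19.2% rose and 2.75% fell, and in the quintile with 55.4% to 72.8% GC, 2.85% rose and 29.5% fell. The Control libraries also differed from each other along GC. In the lowest quintile the median log2 deviation from the Control mean was 0.24 and -0.24 in Control, beside 0.29 and 0.42 in AIR. In the highest quintile it was -0.13 and 0.13 in Control, beside -0.34 and -0.37 in AIR. A correction for the trend with GC gave 1219 genes higher and 1251 lower, 1681 of which were also called without it. Leaving out AIR replicate 1 left 124 calls, with 3301 genes at an unadjusted limma p under 0.05 beside 4364 with all libraries. Leaving out AIR replicate 3 left 933 calls, and leaving out Control replicate 2 gave 4329. Of the 187 called genes chosen for naming, 33 stayed called without AIR replicate 1, 129 without AIR replicate 3, and 166 and 158 without Control replicates 2 and 3. Counts of calls in each list below are followed by those under an alternative where it moved them by over 1.5 times. The alternatives used for this are leaving out 1 library, RLE scaling, the GC correction and the series-table values of Control replicate 2. Where a list's median is printed, its value with RLE scaling, the GC correction or the series-table values follows if it moved by over 1.5 times and over 0.1. Medians that are not printed moved too in some lists. That of mucosal defence went from 0.22 to -0.29 using the series-table values, and that of the respiratory chain from -0.27 to 0.008 with the GC correction. The filter also bears on counts: 290 tested genes were under 1 FPKM in both AIR libraries and 207 in both Control libraries, so they passed through the remaining libraries, and list counts are given without such members where they include 3 or more calls. Any gene named below with both values of 1 group under 1 FPKM passed in this way, and its call is to be read with that limit.

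**Figure D1:**
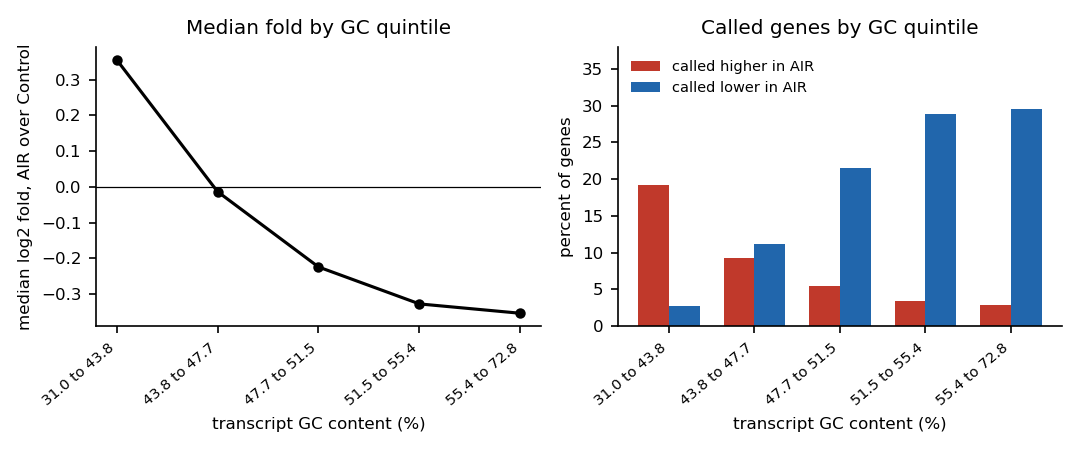
Tested genes in quintiles of transcript GC content (x axis, percent). The left panel gives the median log2 fold, AIR over Control, which is 0.36 in the lowest quintile and -0.35 in the highest; the right panel gives the percent of genes called higher and called lower in AIR.

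**Figure D2:**
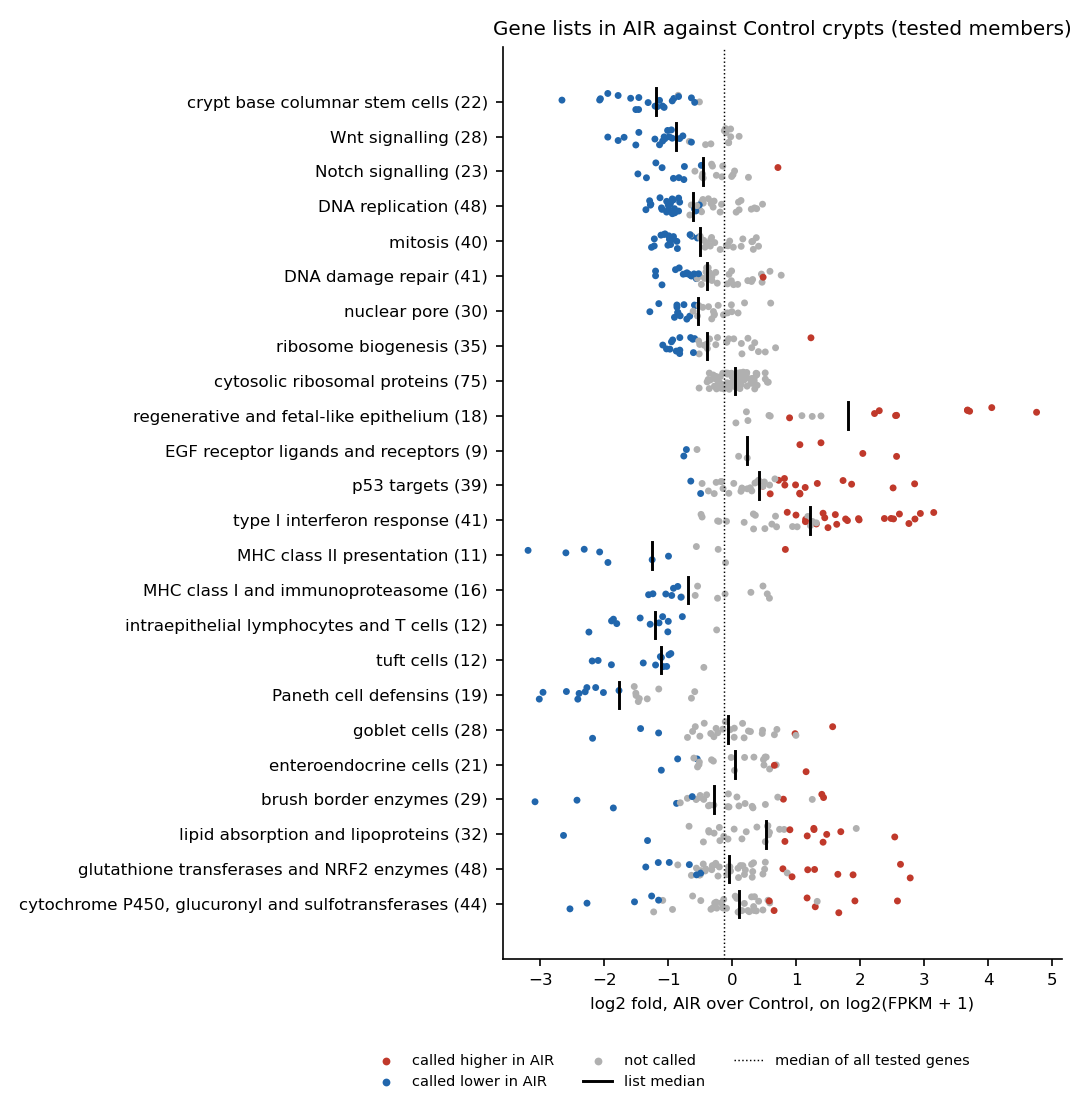
Log2 folds (x axis, AIR over Control) of the tested members of 24 gene lists, 1 dot per gene, coloured by call, with the number tested in brackets; a bar marks each list's median and the dotted line the median of all tested genes, -0.13. Stem cell, T cell and tuft cell dots lie almost wholly to the left, those of the regenerative and interferon lists mostly to the right. The filter favours these sides for members under 1 FPKM in both libraries of a group. In AIR these were 5 of 22 stem cell, 4 of 12 T cell and 10 of 12 tuft cell members. In Control they were 5 of 18 regenerative and 5 of 41 interferon members.

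The crypt base stem cell programme was low in irradiated crypts. Of 22 tested stem cell markers 20 fell and none rose, with a median log2 fold of -1.19 beside -0.13 for all genes. The summed level of all 24 listed markers was 197 and 385 FPKM in AIR, against 1068 and 857 FPKM in Control. Gkn3 (chr6:87383319-87388935), a secreted gastrokine of the stem cell zone, had 0.882 and 1.096 FPKM in AIR, against 8.85 and 15.03 FPKM in Control. Both AIR libraries were near 1 FPKM and both Control libraries were several times above them, a log2 fold of -2.66 (SE 0.264, adjusted p = 0.00453). Smoc2, a secreted matrix protein of the stem cell signature, had 6.75 and 14.3 FPKM in AIR, against 43.9 and 45.7 FPKM in Control, a log2 fold of -2.07 (SE 0.2999, adjusted p = 0.00864). The stem cell transcription factor Ascl2 was at 0.282 and 0.753 FPKM in AIR, against 2.69 and 3.92 FPKM in Control, a log2 fold of -1.51 (SE 0.219, adjusted p = 0.00866). Neither gene's groups overlapped, and in both AIR replicate 1 was the lowest library. The RNA-binding protein Msi1 was at 0.589 and 0.745 FPKM in AIR, against 2.54 and 3.17 FPKM in Control (log2 fold -1.21, adjusted p = 0.00868). Among the other members that fell were the potassium channel subunit Kcnq1 (log2 fold -1.31), the membrane protein Prom1 (-1.17) and the Ephrin receptor Ephb2 (-1.14). The 2 tested members that did not pass were the ion cotransporter Slc12a2 (log2 fold -0.84, adjusted p = 0.0915) and the water channel Aqp4 (log2 fold -0.51, adjusted p = 0.337). Without the 5 members under 1 FPKM in both AIR libraries, 15 of 17 fell. Stem cell markers called lower numbered 4 without AIR replicate 1, and 13 without AIR replicate 3.

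Wnt signalling, which maintains crypt stem cells, was lower in part, with calls among receptors, feedback regulators and targets. In its list 17 of 28 tested genes fell and none rose (median log2 fold -0.88, or -0.52 with the GC correction), and 9 of the 28, all of which fell, are stem cell markers counted above too. Among receptors, Fzd7 had 2.38 and 1.92 FPKM in AIR, against 4.47 and 4.65 FPKM in Control (log2 fold -0.82, adjusted p = 0.0218). Fzd1, Fzd2 and the co-receptor Lrp5 also fell, with log2 folds of -0.95, -1.05 and -0.77. The ubiquitin ligase Rnf43, which removes Frizzled receptors and is itself induced by Wnt, had 4.46 and 3.86 FPKM in AIR, against 9.02 and 8.71 FPKM in Control (log2 fold -0.94, adjusted p = 0.0103). Both AIR values were below both Control values in all of these. Of the proliferative targets, Ccnd1 (cyclin D1) had 15.1 and 11.7 FPKM in AIR, against 40.01 and 50.7 FPKM in Control, a log2 fold of -1.69 (SE 0.185, adjusted p = 0.00546). The growth-promoting transcription factor Myc was at 8.88 and 8.98 FPKM in AIR, against 21.9 and 21.96 FPKM in Control, a log2 fold of -1.21 (SE 0.144, adjusted p = 0.00574), with its libraries nearly equal within each group. The transcription factor Sox9 had 2.87 and 2.91 FPKM in AIR, against 9.28 and 10.1 FPKM in Control (log2 fold -1.46, adjusted p = 0.00549). Sfrp5, a secreted Wnt antagonist outside the list and among the largest falls, was at 0 and 0.0342 FPKM in AIR, against 3.86 and 6.17 FPKM in Control (log2 fold -2.54, adjusted p = 0.00453). Being under 1 FPKM in both AIR libraries, Sfrp5 passed the filter only through the remaining libraries. The core of the pathway differed less and did not pass: Ctnnb1 (beta-catenin) had a log2 fold of -0.12 (adjusted p = 0.592), Apc 0.11 (adjusted p = 0.824) and the R-spondin receptor Lgr4 -0.11 (adjusted p = 0.709). Leaving aside 5 members under 1 FPKM in both AIR libraries, 12 of 23 fell. Wnt genes called lower numbered 3 without AIR replicate 1, and 10 without AIR replicate 3. Wnt genes called higher numbered 1 without Control replicate 2, and 2 using the series-table values. The GC correction ended the calls of Fzd7 (adjusted p = 0.0914) and Lrp5 (adjusted p = 0.0585).

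Notch genes changed in part, and some BMP genes were called. In the Notch list 9 of 23 tested genes fell and 1 rose, with a median log2 fold of -0.46, or -0.11 with the GC correction. Nrarp, a feedback inhibitor induced by Notch, had 7.16 and 11.2 FPKM in AIR, against 22.6 and 31.6 FPKM in Control, a log2 fold of -1.47 (SE 0.247, adjusted p = 0.0112). The receptor Notch1 was at 0.875 and 0.959 FPKM in AIR, against 3.54 and 2.701 FPKM in Control (log2 fold -1.10, adjusted p = 0.0108), and Lfng, a glycosyltransferase that modifies Notch, at 1.39 and 2.16 FPKM in AIR, against 4.602 and 6.04 FPKM in Control (log2 fold -1.19, adjusted p = 0.0117). In all 3 genes the AIR libraries lay below the Control libraries. The ligand Dll1 (log2 fold -0.47, adjusted p = 0.0507) and Atoh1, the transcription factor of the secretory lineage that Notch represses (-0.15, adjusted p = 0.512), did not pass. In the BMP list 5 of 18 fell and 1 rose. Smad6, an inhibitory Smad, had 0.631 and 0.892 FPKM in AIR, against 3.83 and 5.08 FPKM in Control (log2 fold -1.63, adjusted p = 0.00649), and the BMP co-receptor Rgmb had 2.99 and 5.04 FPKM in AIR, against 13.5 and 13.98 FPKM in Control (log2 fold -1.59, adjusted p = 0.00985). Id4, an inhibitor of differentiation and the member that rose, was at 2.44 and 2.24 FPKM in AIR, against 1.02 and 1.35 FPKM in Control (log2 fold 0.62, adjusted p = 0.0318). Notch1 and Smad6 were under 1 FPKM in both AIR libraries, so they passed the filter only through the remaining libraries. Without members under 1 FPKM in both libraries of a group, 8 of 19 Notch genes fell and 0 rose. Of 16 BMP genes 3 then fell and 1 rose. Over all tested genes the same rule left 9930, of which 1781 fell and 730 rose, so the BMP counts lay near the background. Notch genes called lower numbered 0 without AIR replicate 1, 4 without AIR replicate 3, and 16 using the series-table values. Notch genes called higher numbered 0 without AIR replicate 1 or 3 or AIR + MPLA replicate 1, and 3 using the series-table values or without Control replicate 2. BMP genes called lower numbered 0 without AIR replicate 1, 2 without AIR replicate 3, and 8 using the series-table values. BMP genes called higher numbered 0 with the GC correction or without AIR replicate 1 or AIR + MPLA replicate 1 or 3, and 4 using the series-table values or without Control replicate 2. Id4 was not called with the GC correction (adjusted p = 0.220).

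Transcription factors that set intestinal identity moved both ways. Of 41 tested, 13 fell and 3 rose (median log2 fold -0.25, or -0.04 with the GC correction and -0.11 with RLE scaling). The intestinal homeobox factor Cdx2 had 44.3 and 50.6 FPKM in AIR, against 81.4 and 94.8 FPKM in Control (log2 fold -0.88, adjusted p = 0.0132). Gata4, which marks the proximal small intestine, was at 25.8 and 22.2 FPKM in AIR, against 49.7 and 61.02 FPKM in Control (log2 fold -1.17, adjusted p = 0.00855), and the vitamin D receptor Vdr at 47.1 and 47.3 FPKM in AIR, against 103 and 88.7 FPKM in Control (log2 fold -1.003, adjusted p = 0.00955). Control replicates 2 and 3 were both above the AIR libraries in each of these. Hnf4a, a master regulator of enterocytes, had 129.6 and 119 FPKM in AIR, against 175 and 202 FPKM in Control (log2 fold -0.59, adjusted p = 0.0395), whereas its paralog Hnf4g had 122 and 181 FPKM in AIR, against 94.8 and 52.3 FPKM in Control (log2 fold 1.06, adjusted p = 0.0447). The 2 paralogs thus differed in sign. The bile acid receptor Nr1h4 was at 30.3 and 27.1 FPKM in AIR, against 11.1 and 8.99 FPKM in Control, a log2 fold of 1.43 (SE 0.161, adjusted p = 0.00546), and Creb3l3, a factor of lipid and lipoprotein genes, at 129 and 96.7 FPKM in AIR, against 55.9 and 70.4 FPKM in Control (log2 fold 0.82, adjusted p = 0.0367). Barx2, a homeobox factor outside the list, was among the largest falls, at 2.303 and 2.15 FPKM in AIR, against 16.7 and 16.8 FPKM in Control (log2 fold -2.46, adjusted p = 0.00405). Identity factors called lower numbered 0 without AIR replicate 1, 6 without AIR replicate 3, and 21 using the series-table values. Identity factors called higher numbered 0 without AIR replicate 1, 1 without AIR + MPLA replicate 1 or 3, 5 with the GC correction, and 9 using the series-table values. Hnf4a was called neither with the GC correction (adjusted p = 0.233) nor with RLE scaling (adjusted p = 0.114).

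The machinery of DNA replication was lower in part, and its limiting enzymes not uniformly so. In the replication list 25 of 48 tested genes fell and none rose (median log2 fold -0.61), and the 48 listed genes summed to 639 and 697 FPKM in AIR, against 909 and 1011 FPKM in Control. The helicase subunit Mcm3 had 9.48 and 7.59 FPKM in AIR, against 20.8 and 23.7 FPKM in Control, a log2 fold of -1.29 (SE 0.161, adjusted p = 0.00657). Mcm5 and Mcm6, of the same complex, were at 15.9 and 15.7 FPKM in AIR, against 30.7 and 41.6 FPKM in Control (log2 fold -1.13, adjusted p = 0.01003) and at 15.996 and 15.7 FPKM in AIR, against 30.9 and 32.9 FPKM in Control (log2 fold -0.96, adjusted p = 0.00836). The AIR pairs were close to each other and below both Control values in all 3 subunits. Pold1, the catalytic subunit of DNA polymerase delta, had 4.22 and 5.95 FPKM in AIR, against 13.01 and 14.3 FPKM in Control (log2 fold -1.28, adjusted p = 0.00824), Cdc6, which loads the helicase, 1.13 and 0.969 FPKM in AIR, against 2.98 and 3.84 FPKM in Control (log2 fold -1.10, adjusted p = 0.00945), and Uhrf1, which copies DNA methylation, 10.7 and 11.4 FPKM in AIR, against 24.6 and 25.2 FPKM in Control (log2 fold -1.11, adjusted p = 0.00649). Several S phase genes did not pass, among them the sliding clamp Pcna (log2 fold -0.17, adjusted p = 0.461), the ribonucleotide reductase subunit Rrm2 (0.47, adjusted p = 0.187) and cyclin E2, Ccne2 (0.35, adjusted p = 0.253). Replication genes called lower numbered 3 without AIR replicate 1, and 16 without AIR replicate 3. Replication genes called higher numbered 1 with RLE scaling or without AIR replicate 3, and 3 using the series-table values.

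Mitotic genes showed the same mixture. Of 40 tested 18 fell and none rose (median log2 fold -0.50), and the 40 listed genes summed to 479.8 and 554 FPKM in AIR, against 810.1 and 777 FPKM in Control. The mitotic kinase Plk1 had 11.9 and 10.999 FPKM in AIR, against 24.8 and 33.5 FPKM in Control, a log2 fold of -1.26 (SE 0.179, adjusted p = 0.00836). The condensin subunit Ncapd2 was at 6.96 and 7.46 FPKM in AIR, against 17.9 and 18.3 FPKM in Control, a log2 fold of -1.22 (SE 0.139, adjusted p = 0.00546), and Cdc20, an activator of the anaphase-promoting complex, at 22.5 and 19.7 FPKM in AIR, against 39.1 and 44.9 FPKM in Control (log2 fold -0.96, adjusted p = 0.0101). None of the 3 overlapped between groups. Espl1 (separase) had 2.07 and 2.12 FPKM in AIR, against 4.64 and 4.57 FPKM in Control (log2 fold -0.86, adjusted p = 0.0113) and Foxm1, a transcription factor of mitotic genes, 5.14 and 4.62 FPKM in AIR, against 10.02 and 10.9 FPKM in Control (log2 fold -0.96, adjusted p = 0.00906). The kinase Cdk1 (log2 fold -0.19, adjusted p = 0.497) and cyclin B1, Ccnb1 (-0.32, adjusted p = 0.117), did not pass. Mitotic genes called lower numbered 0 without AIR replicate 1. Mitotic genes called higher numbered 2 without Control replicate 2, and 8 using the series-table values.

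Promoters of the cell cycle genes called lower are shown because cell cycle factors are known to bind the motifs searched below. RefSeq promoters (GRCm38.p6, 250 bases before to 50 after the start) matched 8455 of the 10415 tested genes by gene ID, and motifs were searched on both strands. The E2F site, TTTCCCGC or TTTGGCGC, was in 7 of 23 promoters of called replication genes (30.4%), in 4 of 16 of those not called (25%) and in 304 of all 8455 (3.6%). The cell cycle homology element TTTGAA, a site of repressor complexes in mitotic genes, was in 12 of 13 promoters of called mitotic genes (92.3%), in 12 of 20 of those not called (60%) and in 1219 of all (14.4%). No match of the 2 motifs shared a base in any promoter of a tested gene. The 150 bases before the start follow for the 3 called members of each list with the smallest p that hold a match there, with the matches in capitals, 5′ to 3′ on the strand of the gene. For E2F they are Mcm6, chr1:128359706-128359855 on the minus strand, Cdc6, chr11:98908001-98908150 on the plus strand and Mcm5, chr8:75109359-75109508 on the plus strand.
Mcm6: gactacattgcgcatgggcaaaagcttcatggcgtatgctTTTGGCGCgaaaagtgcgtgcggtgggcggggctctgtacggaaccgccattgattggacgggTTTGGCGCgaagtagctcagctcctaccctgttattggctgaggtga
Cdc6: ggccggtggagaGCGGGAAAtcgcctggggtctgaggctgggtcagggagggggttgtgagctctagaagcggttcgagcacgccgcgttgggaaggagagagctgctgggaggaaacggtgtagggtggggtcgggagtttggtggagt
Mcm5: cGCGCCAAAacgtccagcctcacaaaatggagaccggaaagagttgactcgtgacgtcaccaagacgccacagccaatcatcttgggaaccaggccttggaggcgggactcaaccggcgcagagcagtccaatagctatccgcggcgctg
For the homology element they are Ncapd2, chr6:125191587-125191736 on the minus strand, Cdc20, chr4:118437344-118437493 on the minus strand and Espl1, chr15:102296143-102296292 on the plus strand.
Ncapd2: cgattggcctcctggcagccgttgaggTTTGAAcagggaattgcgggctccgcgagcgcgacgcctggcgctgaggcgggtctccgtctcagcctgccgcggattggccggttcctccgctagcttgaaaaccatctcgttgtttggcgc
Cdc20: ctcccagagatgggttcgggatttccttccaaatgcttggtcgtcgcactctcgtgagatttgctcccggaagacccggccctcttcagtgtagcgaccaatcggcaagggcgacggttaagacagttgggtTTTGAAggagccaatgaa
Espl1: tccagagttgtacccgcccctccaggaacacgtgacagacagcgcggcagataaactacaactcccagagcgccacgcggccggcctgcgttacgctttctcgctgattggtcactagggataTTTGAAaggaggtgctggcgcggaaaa
Mcm6 holds 2 matches, 110 and 47 bases before the start. In Cdc20 and Espl1 the match begins 18 and 27 bases before the start, and in Ncapd2 123 bases before it. The Ncapd2 stretch also holds an E2F site, left in lower case. A match describes the letters only.

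DNA repair genes were lower more often than higher. In the repair list 14 of 41 tested genes fell and 1 rose (median log2 fold -0.40, or -0.26 using the series-table values). The mismatch repair protein Msh6 had 4.68 and 4.66 FPKM in AIR, against 13.2 and 10.9 FPKM in Control (log2 fold -1.20, adjusted p = 0.00755). Ung, which removes uracil from DNA, was at 3.77 and 4.18 FPKM in AIR, against 9.21 and 11.7 FPKM in Control (log2 fold -1.20, adjusted p = 0.00782), and Parp1, a sensor of strand breaks, at 7.23 and 7.49 FPKM in AIR, against 17.03 and 16.8 FPKM in Control (log2 fold -1.10, adjusted p = 0.00661). All 3 were below Control in both AIR libraries. Xrcc5, the large Ku subunit of end joining, was the member that rose, at 7.42 and 7.74 FPKM in AIR, against 4.79 and 5.52 FPKM in Control (log2 fold 0.48, adjusted p = 0.0493). The damage kinase Atm (log2 fold -0.43, adjusted p = 0.242) and Brca1 (-0.07, adjusted p = 0.793) did not pass. Among histones, the variant H2afx, which is phosphorylated at breaks, had 27.6 and 33.2 FPKM in AIR, against 96.2 and 119 FPKM in Control (log2 fold -1.79, adjusted p = 0.00453). Repair genes called lower numbered 0 without AIR replicate 1, 4 without AIR + MPLA replicate 1 or 3, 5 without AIR replicate 3, and 9 with RLE scaling. Repair genes called higher numbered 0 with the GC correction or without AIR replicate 1 or 3 or AIR + MPLA replicate 1 or 3, 2 with RLE scaling, 4 without Control replicate 2, and 11 using the series-table values. The call of Xrcc5 (adjusted p = 0.0655) ended with the GC correction.

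Some genes of nuclear pores and of ribosome assembly were lower. Of 30 tested nuclear pore genes 13 fell and none rose (median log2 fold -0.53). The pore membrane protein Nup210 had 2.73 and 2.64 FPKM in AIR, against 7.94 and 8.05 FPKM in Control, a log2 fold of -1.29 (SE 0.146, adjusted p = 0.00546). In ribosome biogenesis 13 of 35 fell and 1 rose (median -0.39, or -0.15 with the GC correction). Bop1, needed for the large subunit, had 13.8 and 12.5 FPKM in AIR, against 24.5 and 34.2 FPKM in Control (log2 fold -1.09, adjusted p = 0.0125), and Fbl, which methylates ribosomal RNA, 61.2 and 56.03 FPKM in AIR, against 101 and 116 FPKM in Control (log2 fold -0.88, adjusted p = 0.0128). The nucleolar chaperone Npm1 went the other way, at 301 and 381 FPKM in AIR, against 176 and 117 FPKM in Control (log2 fold 1.23, adjusted p = 0.0164). Of 20 aminoacyl-tRNA synthetases 6 fell, with Iars at 10.98 and 10.8 FPKM in AIR, against 23.3 and 23.05 FPKM in Control (log2 fold -1.03, adjusted p = 0.00734). Each of these genes was without overlap between groups. By limma 0 of 75 cytosolic ribosomal protein genes passed in either direction (median 0.04, or 0.24 with the GC correction, 0.19 with RLE scaling and -0.09 using the series-table values) and 2 had an unadjusted p under 0.05 in all. Using the series-table values 7 were higher and 8 lower. Nuclear pore genes called lower numbered 0 without AIR replicate 1, and 3 without AIR replicate 3. Nuclear pore genes called higher numbered 2 using the series-table values or without Control replicate 2. Biogenesis genes called lower numbered 1 without AIR replicate 1, 2 without AIR replicate 3, 8 without AIR + MPLA replicate 1 or 3, and 23 using the series-table values. Biogenesis genes called higher numbered 0 without AIR replicate 1 or 3, 2 with the GC correction or without Control replicate 3, 3 with RLE scaling, 5 without Control replicate 2, and 8 using the series-table values. Synthetases called lower numbered 0 without AIR replicate 1, 2 without AIR replicate 3, 3 without AIR + MPLA replicate 1 or 3, 11 without Control replicate 2, and 15 using the series-table values. Synthetases called higher numbered 1 using the series-table values or without Control replicate 2.

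Genes of the regenerative, fetal-like programme were called higher in irradiated crypts and not lower. Of 18 tested members 10 rose and none fell (median log2 fold 1.80), and the 32 listed genes summed to 2189 and 1302 FPKM in AIR, against 559 and 873 FPKM in Control. Anxa1 (chr19:20373434-20390671), an annexin of inflamed and regenerating epithelium, had 31.5 and 4.303 FPKM in AIR, against 0.0563 and 0 FPKM in Control, so it was close to 0 in Control and differed several-fold between the AIR libraries. It had a log2 fold of 3.67 (SE 0.724, adjusted p = 0.0153). Anxa3, another annexin, was at 18.98 and 6.37 FPKM in AIR, against 0.671 and 1.56 FPKM in Control, a log2 fold of 2.55 (SE 0.449, adjusted p = 0.0124). The urokinase receptor Plaur had 9.49 and 2.42 FPKM in AIR, against 0.126 and 0.462 FPKM in Control, a log2 fold of 2.22 (SE 0.498, adjusted p = 0.0218). In these 3 genes AIR replicate 1 was the highest library and AIR replicate 3 was still above Control. S100a10, a calcium-binding partner of annexin A2, had 692 and 614 FPKM in AIR, against 287 and 426 FPKM in Control (log2 fold 0.90, adjusted p = 0.0332). Not called were the claudin Cldn4 (log2 fold 1.25, adjusted p = 0.147) and the keratin Krt7 (0.06, adjusted p = 0.909). Without the 5 members under 1 FPKM in both Control libraries, 5 of 13 rose. Regenerative genes called higher numbered 3 without Control replicate 2, and 4 without Control replicate 3 or AIR replicate 1.

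Some genes of EGF receptor signalling and some immediate early genes changed, in both directions. In the list of EGF receptor ligands and receptors 4 of 9 tested genes rose and 2 fell. Hbegf, a ligand, had 9.45 and 5.31 FPKM in AIR, against 2.596 and 3.24 FPKM in Control (log2 fold 1.06, adjusted p = 0.02798). Errfi1, an induced inhibitor of the receptor, was at 40.7 and 25.3 FPKM in AIR, against 7.16 and 6.94 FPKM in Control, a log2 fold of 2.04 (SE 0.235, adjusted p = 0.00546). The receptor Erbb2 was at 15.3 and 15.2 FPKM in AIR, against 25.3 and 27.7 FPKM in Control (log2 fold -0.76, adjusted p = 0.0136), and Lrig1, a membrane inhibitor of the receptor and a stem cell marker, also fell (log2 fold -0.72). Groups did not overlap in any of these 4 genes. Of 24 tested AP-1 and immediate early genes 6 rose and 3 fell. The ERK phosphatase Dusp6 had 58.01 and 20.4 FPKM in AIR, against 4.29 and 10.4 FPKM in Control, a log2 fold of 2.19 (SE 0.542, adjusted p = 0.0285), and the transcription factor Klf6 57.9 and 28.6 FPKM in AIR, against 15.9 and 11.3 FPKM in Control (log2 fold 1.53, adjusted p = 0.0183). Dusp1, Dusp5, Egr1 and Maff rose as well, with log2 folds of 1.29, 1.15, 0.72 and 0.95, and Cebpb and Ier2 fell, with -0.80 and -0.63. EGF list genes called lower numbered 0 without AIR replicate 1, and 1 with RLE scaling or with the GC correction or without AIR replicate 3 or AIR + MPLA replicate 1 or 3. EGF list genes called higher numbered 1 without AIR replicate 1, and 2 without Control replicate 2. Immediate early genes called lower numbered 0 without AIR replicate 1, 1 with RLE scaling or with the GC correction or without Control replicate 3 or AIR replicate 3 or AIR + MPLA replicate 1 or 3, and 5 using the series-table values or without Control replicate 2. Immediate early genes called higher numbered 0 without AIR replicate 1, 3 without Control replicate 2, and 11 with the GC correction. With the GC correction Lrig1 (adjusted p = 0.153), Cebpb (adjusted p = 0.107) and Ier2 (adjusted p = 0.1504) were not called, and with RLE scaling Lrig1 (adjusted p = 0.0546), Cebpb (adjusted p = 0.0968) and Ier2 (adjusted p = 0.0769) were not.

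Genes of matrix, proteases and cytoskeleton differed in both directions. In the matrix and protease list 8 of 31 tested genes rose and 1 fell (median log2 fold 0.26, or 0.50 with the GC correction, 0.41 with RLE scaling and 0.13 using the series-table values). The lysosomal protease Ctsl had 18.7 and 9.68 FPKM in AIR, against 2.84 and 4.29 FPKM in Control (log2 fold 1.69, adjusted p = 0.0126). Lamb3, a laminin chain of basement membrane, was at 14.02 and 6.01 FPKM in AIR, against 2.08 and 3.56 FPKM in Control (log2 fold 1.45, adjusted p = 0.0317), and the protease inhibitor Serpinb6a at 304 and 241 FPKM in AIR, against 103 and 112 FPKM in Control (log2 fold 1.32, adjusted p = 0.00755). AIR lay above Control without overlap in all 3. Tgm2, a transglutaminase that crosslinks matrix, was the member that fell, at 10.9 and 11.9 FPKM in AIR, against 45.2 and 50.9 FPKM in Control, a log2 fold of -1.98 (SE 0.152, adjusted p = 0.00405). Among 28 tested keratins and cytoskeletal genes 3 rose and 5 fell, near the shares of all tested genes, 8.05% and 18.7%. The actin-severing protein Gsn (gelsolin) had 43.1 and 21.6 FPKM in AIR, against 4.96 and 8.302 FPKM in Control (log2 fold 2.08, adjusted p = 0.01097), whereas the actin-binding calponin Cnn3 had 14.01 and 19.9 FPKM in AIR, against 72.1 and 74.2 FPKM in Control (log2 fold -2.07, adjusted p = 0.00453). Both were free of overlap, in opposite directions. Leaving aside 4 matrix genes under 1 FPKM in both Control libraries, 5 of 27 rose. Matrix genes called lower numbered 2 without Control replicate 2 or 3, and 3 using the series-table values. Matrix genes called higher numbered 0 without AIR replicate 1, and 5 without Control replicate 3. Cytoskeletal genes called lower numbered 1 without AIR replicate 1, 2 with the GC correction, 3 with RLE scaling or without AIR replicate 3 or AIR + MPLA replicate 1 or 3, 8 without Control replicate 2, and 14 using the series-table values. Cytoskeletal genes called higher numbered 0 without AIR replicate 1, and 5 with the GC correction or using the series-table values.

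**Figure D3:**
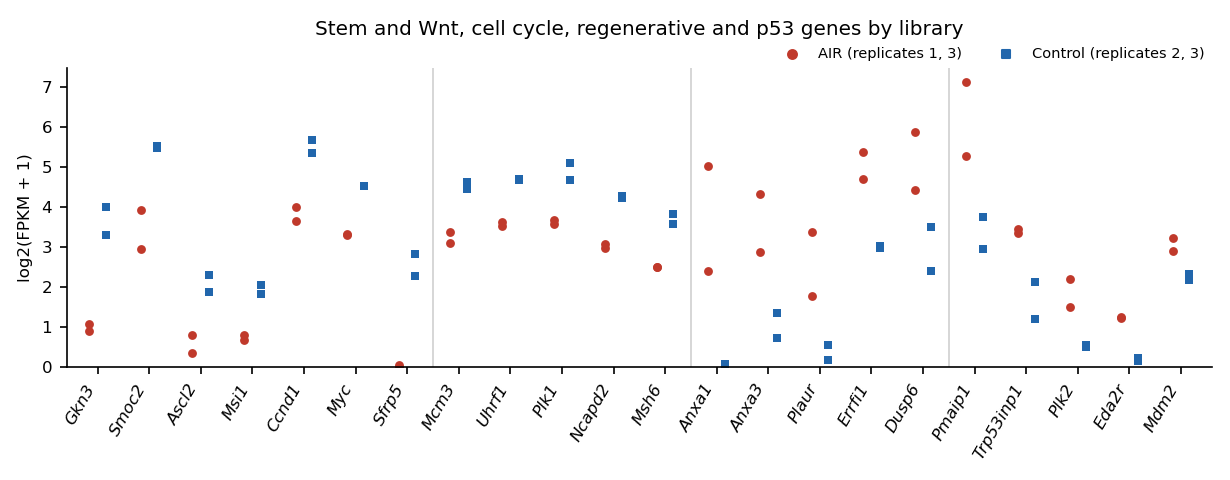
Level on log2(FPKM + 1) (y axis) of stem and Wnt, cell cycle, regenerative and p53 genes in each library, red dots for the 2 AIR libraries and blue squares for the 2 Control libraries. In every gene plotted the AIR dots lie wholly below or wholly above the Control squares. The AIR libraries are farthest apart in Anxa1, Anxa3, Plaur, Dusp6 and Pmaip1. Errfi1 and Dusp6, plotted beside the regenerative genes, are not in their list.

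Part of the listed p53 targets was higher in irradiated crypts, and the activity of p53 itself was not measured. Of 39 tested p53 targets 15 rose and 2 fell (median log2 fold 0.41). Pmaip1 (Noxa), a BH3-only protein that promotes apoptosis, had 139 and 37.7 FPKM in AIR, against 12.6 and 6.71 FPKM in Control, a log2 fold of 2.85 (SE 0.563, adjusted p = 0.0155), with AIR replicate 1 several times above AIR replicate 3. Trp53inp1, a stress-induced cofactor of p53, was at 9.91 and 9.18 FPKM in AIR, against 3.41 and 1.29 FPKM in Control (log2 fold 1.73, adjusted p = 0.0125). The polo-like kinase Plk2 had 3.58 and 1.85 FPKM in AIR, against 0.411 and 0.464 FPKM in Control (log2 fold 1.33, adjusted p = 0.0124), and the death receptor Eda2r 1.38 and 1.33 FPKM in AIR, against 0.168 and 0.105 FPKM in Control (log2 fold 1.05, adjusted p = 0.0115). All 3 were above Control in both AIR libraries. Mdm2, the ubiquitin ligase that limits p53, was at 8.46 and 6.47 FPKM in AIR, against 4.06 and 3.51 FPKM in Control (log2 fold 0.82, adjusted p = 0.0228), the death receptor Fas at 5.45 and 4.78 FPKM in AIR, against 2.31 and 2.61 FPKM in Control (log2 fold 0.82, adjusted p = 0.0142) and the pore-forming Bax at 16.4 and 15.8 FPKM in AIR, against 7.54 and 11.6 FPKM in Control (log2 fold 0.72, adjusted p = 0.0458). Bbc3 (Puma) rose with a log2 fold of 0.48 (adjusted p = 0.04902). Gtse1, a mitotic regulator of p53, fell, at 4.75 and 3.28 FPKM in AIR, against 6.05 and 7.59 FPKM in Control (log2 fold -0.65, adjusted p = 0.0487). Leaving aside 6 targets under 1 FPKM in both Control libraries, Plk2 and Eda2r among them, 10 of 33 rose. Targets of p53 called lower numbered 0 with RLE scaling or without Control replicate 3 or AIR replicate 1 or 3 or AIR + MPLA replicate 1 or 3, 1 with the GC correction or without Control replicate 2, and 4 using the series-table values. Targets of p53 called higher numbered 0 without AIR replicate 1, and 6 without AIR replicate 3. Gtse1 was not called with the GC correction (adjusted p = 0.214) or RLE scaling (adjusted p = 0.0950).

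In the BCL2 family, whose members promote or restrain mitochondrial apoptosis, 5 of 14 tested genes rose and 1 fell, with members of both roles among the rises. The survival protein Mcl1 had 108 and 85.2 FPKM in AIR, against 57.9 and 58.9 FPKM in Control (log2 fold 0.70, adjusted p = 0.0259). Bok, a Bax-like effector, rose with a log2 fold of 1.24 (adjusted p = 0.0447), and Bcl2l15, a less studied member, had 15.97 and 20.6 FPKM in AIR, against 6.67 and 8.899 FPKM in Control (log2 fold 1.14, adjusted p = 0.0117). The mitophagy receptors Bnip3 and Bnip3l rose too, with 0.79 and 0.81. Of 24 tested caspases and genes of lytic death 2 rose and 4 fell, near the shares of all tested genes, 8.05% and 18.7%. Il18, a cytokine matured by inflammatory caspases, was at 46.2 and 57.6 FPKM in AIR, against 21.1 and 28.004 FPKM in Control (log2 fold 1.06, adjusted p = 0.0133) and the inflammatory caspase Casp4 at 15.2 and 15.6 FPKM in AIR, against 8.94 and 6.22 FPKM in Control (log2 fold 0.95, adjusted p = 0.01704). The gasdermin Gsdmc4, which has close paralogs among which reads may be split, had 0.0414 and 0.0652 FPKM in AIR, against 2.78 and 7.87 FPKM in Control (log2 fold -2.46, adjusted p = 0.00878). No overlap between groups was seen in any of these. BCL2 family members called lower numbered 0 with RLE scaling or with the GC correction or without Control replicate 3 or AIR replicate 1 or 3 or AIR + MPLA replicate 1 or 3, 3 without Control replicate 2, and 4 using the series-table values. BCL2 family members called higher numbered 0 without AIR replicate 1, 1 without AIR + MPLA replicate 1 or 3, and 2 without AIR replicate 3. Caspases and lytic death genes called lower numbered 0 without AIR replicate 1, and 7 using the series-table values. Caspases and lytic death genes called higher numbered 0 without AIR replicate 1 or 3, 1 with the GC correction, 4 without Control replicate 2, and 9 using the series-table values. The GC correction left out Bnip3 (adjusted p = 0.227) and Casp4 (adjusted p = 0.0746).

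Type I interferon signalling induces antiviral genes through the factor ISGF3, which binds a GAAANNGAA core in their promoters. These promoters are shown because interferon genes gave some of the highest folds. The core was found, on either strand, in 12 of 17 promoters of called interferon genes (70.6%), in 7 of 13 of those not called (53.8%) and in 705 of all 8455 tested genes with a promoter (8.34%). In 20 of those promoters a match shared a base with TTTGAA, and in 4 with an E2F site, but in none of the stretches printed here. The 150 bases before the start of Ifit1, chr19:34640739-34640888 on the plus strand, Rsad2, chr12:26456453-26456602 on the minus strand and Ifit3, chr19:34583379-34583528 on the plus strand (RefSeq, GRCm38.p6) follow, with matches in capitals, 5′ to 3′ on the strand of the gene.
Ifit1: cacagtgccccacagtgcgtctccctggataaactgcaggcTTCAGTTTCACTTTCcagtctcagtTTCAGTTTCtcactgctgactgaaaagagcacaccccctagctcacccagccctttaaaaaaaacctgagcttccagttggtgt
Rsad2: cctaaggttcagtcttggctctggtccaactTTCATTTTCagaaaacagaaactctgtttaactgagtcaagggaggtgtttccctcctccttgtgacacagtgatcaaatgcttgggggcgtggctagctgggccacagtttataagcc
Ifit3: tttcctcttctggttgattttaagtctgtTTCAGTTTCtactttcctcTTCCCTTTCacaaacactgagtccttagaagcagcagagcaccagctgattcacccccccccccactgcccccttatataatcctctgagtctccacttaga
All matches shown read TTC-first, that is, on the strand opposite to the motif as spelled. Overlapping matches form 1 run of capitals, as in Ifit1, whose first run begins 109 bases before the start.

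Many antiviral genes of the interferon response were higher in irradiated crypts. Of 41 tested members 22 rose and none fell, with a median log2 fold of 1.22. Rsad2 (viperin), which makes an antiviral nucleotide, had 17.8 and 6.74 FPKM in AIR, against 0.376 and 0.797 FPKM in Control, a log2 fold of 2.94 (SE 0.489, adjusted p = 0.01102). Ifit3, which binds viral RNA complexes, was at 13.8 and 6.699 FPKM in AIR, against 0.746 and 0.99003 FPKM in Control (log2 fold 2.52, adjusted p = 0.0132), and Usp18, which removes ISG15 and dampens the interferon receptor, at 55.9 and 18.6 FPKM in AIR, against 2.53 and 5.02 FPKM in Control (log2 fold 2.85, adjusted p = 0.0155). In each, AIR replicate 1 was the highest library, AIR replicate 3 came next and Control was lowest. Samd9l, an inhibitor of translation, had 26.1 and 18.5 FPKM in AIR, against 4.23 and 1.71 FPKM in Control, a log2 fold of 2.61 (SE 0.336, adjusted p = 0.00709). Oas2, an RNA sensor, was at 8.95 and 3.77 FPKM in AIR, against 0.6101 and 0.887 FPKM in Control (log2 fold 1.98, adjusted p = 0.0222), the virus-tethering Bst2 at 70.6 and 42.2 FPKM in AIR, against 9.55 and 18.03 FPKM in Control (log2 fold 1.97, adjusted p = 0.0201) and the transcription factor Irf7 at 98.2 and 50.5 FPKM in AIR, against 13.8 and 27.5 FPKM in Control (log2 fold 1.80, adjusted p = 0.0388). Again no overlap was seen. Of the ISGF3 subunits Stat2 rose (log2 fold 1.14, adjusted p = 0.0238), whereas Irf9 (0.68, adjusted p = 0.0571) did not pass. Nor did Ifitm3 (-0.47, adjusted p = 0.204) and Lgals3bp (-0.23, adjusted p = 0.572). The sum over the 42 listed genes, which abundant members dominate, was 1862 and 1101 FPKM in AIR, against 875 and 1221 FPKM in Control, so AIR replicate 3 was below Control replicate 3 in it. Without the 5 members under 1 FPKM in both Control libraries, 17 of 36 rose. Interferon genes called lower numbered 1 without Control replicate 2, and 2 using the series-table values. Interferon genes called higher numbered 0 without AIR replicate 1, 5 without Control replicate 3, 6 without Control replicate 2, and 14 without AIR replicate 3. The Ifit genes have close paralogs, so a value for 1 of them may hold reads of another. Irf7 was not called using the series-table values (adjusted p = 0.0537).

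Antigen presentation by class II, which interferon gamma induces in the epithelium, went the other way. Of 11 tested genes 7 fell and 1 rose (median log2 fold -1.25), and the 16 listed genes summed to 211 and 174 FPKM in AIR, against 425 and 641 FPKM in Control. The class II chain H2-Ab1 had 18.7 and 11.5 FPKM in AIR, against 57.3 and 104 FPKM in Control (log2 fold -2.31, adjusted p = 0.00894). H2-DMb1, of the peptide editor H2-DM, was at 1.41 and 1.74 FPKM in AIR, against 7.32 and 13.05 FPKM in Control (log2 fold -2.07, adjusted p = 0.00649), and H2-Aa, the partner chain of H2-Ab1, at 11.4 and 5.69 FPKM in AIR, against 22.8 and 50.4 FPKM in Control (log2 fold -1.94, adjusted p = 0.0175). The Control libraries were above the AIR libraries in all 3, with Control replicate 3 the highest. Ctss, the protease that trims the class II invariant chain, rose, at 72.98 and 47.2 FPKM in AIR, against 35.7 and 29.8 FPKM in Control (log2 fold 0.83, adjusted p = 0.0426). The list of GTPases that interferon gamma also induces had a median log2 fold of 0.67 over 5 tested members. Of these, 2 were under 1 FPKM in both Control libraries, which favours rises, and at a filter of 5 FPKM the median was 0.26. Its 17 listed genes summed to 66.3 and 49.7 FPKM in AIR, against 37.9 and 40.1 FPKM in Control. No count of calls is given for it, since the members called were under 1 FPKM in both Control libraries. In the list of class I and the immunoproteasome 7 of 16 fell. The immunoproteasome subunits Psmb10 and Psmb8 had 27.1 and 23.2 FPKM in AIR, against 57.2 and 70.7 FPKM in Control (log2 fold -1.31, adjusted p = 0.00755) and 41.01 and 38.1 FPKM in AIR, against 79.3 and 113 FPKM in Control (log2 fold -1.24, adjusted p = 0.0142). The class I heavy chains H2-K1 (0.48, adjusted p = 0.359) and H2-D1 (0.58, adjusted p = 0.242) did not pass. Class II genes called lower numbered 2 without AIR replicate 1. Class II genes called higher numbered 0 without Control replicate 3 or AIR replicate 1 or AIR + MPLA replicate 1 or 3. Class I and immunoproteasome genes called lower numbered 0 without AIR replicate 1, and 1 without AIR replicate 3. Class I and immunoproteasome genes called higher numbered 1 with the GC correction or using the series-table values.

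Markers of intraepithelial lymphocytes and T cells were low beside these. Of 12 tested members 11 fell and none rose (median log2 fold -1.21), and the 21 listed genes summed to 42.1 and 53.2 FPKM in AIR, against 153 and 228 FPKM in Control. Cd3e, a chain of the T cell receptor complex, had 0.4099 and 0.569 FPKM in AIR, against 2.45 and 3.71 FPKM in Control (log2 fold -1.44, adjusted p = 0.00755). Cd8a, the co-receptor of cytotoxic T cells, was at 1.23 and 1.23 FPKM in AIR, against 3.14 and 3.84 FPKM in Control (log2 fold -1.01, adjusted p = 0.0134), and the cytotoxic granule protease Gzmb at 2.84 and 4.41 FPKM in AIR, against 14.9 and 16.8 FPKM in Control (log2 fold -1.89, adjusted p = 0.0112). None of these overlapped between groups. The granzyme Gzma was at 13.9 and 21.7 FPKM in AIR, against 53.3 and 75.3 FPKM in Control (log2 fold -1.81, adjusted p = 0.00893). The part of T cells in the interferon and class II values was not tested. Among chemokines and cytokines Il15, which sustains intraepithelial lymphocytes, rose, at 6.697 and 4.53 FPKM in AIR, against 2.501 and 2.09 FPKM in Control (log2 fold 0.99, adjusted p = 0.0162). Leaving aside 4 T cell genes under 1 FPKM in both AIR libraries, 7 of 8 fell. T cell genes called lower numbered 0 without AIR replicate 1.

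**Figure D4:**
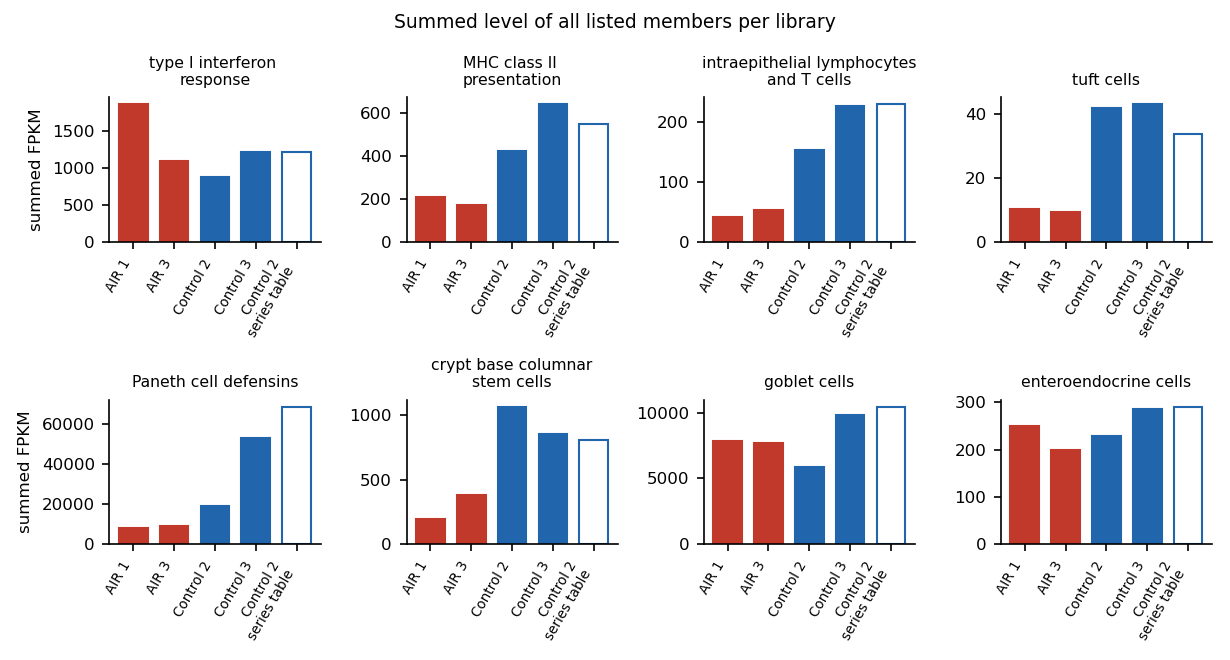
Summed FPKM (y axis, from 0) of all listed members of 8 gene lists in the 2 AIR libraries, the 2 Control libraries and, as an open bar, the series-table values of Control replicate 2. Class II, T cell, tuft, defensin and stem cell sums are lower in both AIR libraries than in both Control libraries, and the interferon sum of AIR replicate 3 lies below that of Control replicate 3.

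Secretory lineages differed by type. Tuft cell genes were low, and the 26 listed genes summed to 10.2 and 9.27 FPKM in AIR, against 41.7 and 43.003 FPKM in Control. Of these 12 passed the filter, 10 of them under 1 FPKM in both AIR libraries and so only through the remaining libraries, which favours calls lower in AIR. The count of 11 calls lower among the 12 is therefore no support of its own, and at a filter of 5 FPKM 1 was called. The taste channel Trpm5 had 0.492 and 0.139 FPKM in AIR, against 2.31 and 2.53 FPKM in Control, and the tuft cell kinase Dclk1 had 0.0745 and 0.0613 FPKM in AIR, against 1.32 and 1.19 FPKM in Control. Both AIR libraries were below 1 FPKM in both genes, and Control was above. Pou2f3, the transcription factor that specifies tuft cells, had 0.1299 and 0.0751 FPKM in AIR, against 1.502 and 1.01 FPKM in Control. Tuft cell genes called lower numbered 4 without AIR replicate 1.

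Paneth cell antimicrobial genes were lower with a wide spread in Control. Of 19 tested alpha-defensins 10 fell (median log2 fold -1.77, or -3.07 using the series-table values). The 22 listed defensins summed to 8127 and 9029 FPKM in AIR, against 19174 and 53343 FPKM in Control, so Control replicate 3 exceeded Control replicate 2 several-fold, and the series-table values of Control replicate 2 gave 68851. Defa30 had 1584 and 1244 FPKM in AIR, against 4118 and 7809.5 FPKM in Control (log2 fold -2.01, adjusted p = 0.0125) and Defa24 4725 and 5452 FPKM in AIR, against 10144 and 29539 FPKM in Control (log2 fold -1.77, adjusted p = 0.0402). These genes are near-identical copies, and how the authors' counting divided reads between them is not known. Of 15 other Paneth markers 6 fell and 1 rose. The lectin Itln1 was at 215 and 221 FPKM in AIR, against 473 and 2204 FPKM in Control (log2 fold -2.22, adjusted p = 0.0399), and Guca2b, the uroguanylin hormone that regulates fluid secretion, at 711 and 754 FPKM in AIR, against 387 and 470.01 FPKM in Control (log2 fold 0.78, adjusted p = 0.0318). Both were without overlap. Defensins called lower numbered 0 without AIR replicate 1, 3 without AIR replicate 3, 16 without Control replicate 2, and 19 using the series-table values. Other Paneth markers called lower numbered 0 without AIR replicate 1, 1 without AIR replicate 3, 3 with the GC correction or without AIR + MPLA replicate 1 or 3, 10 without Control replicate 2, and 12 using the series-table values. Other Paneth markers called higher numbered 0 without Control replicate 2 or AIR replicate 1 or 3 or AIR + MPLA replicate 1 or 3, and 3 without Control replicate 3. Calls of Defa24 (adjusted p = 0.0589) and Itln1 (adjusted p = 0.0717) did not survive the GC correction, nor those of Defa24 (adjusted p = 0.0607) and Itln1 (adjusted p = 0.0551) RLE scaling.

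Goblet and enteroendocrine markers were mostly not called. Of 28 tested goblet genes 3 fell and 2 rose (median log2 fold -0.07, or 0.20 with the GC correction, 0.06 with RLE scaling and -0.34 using the series-table values). The membrane mucin Muc4 had 0.711 and 0.666 FPKM in AIR, against 7.67 and 5.77 FPKM in Control (log2 fold -2.18, adjusted p = 0.00453), and Fcgbp, a component of secreted mucus, 165 and 129 FPKM in AIR, against 287 and 367 FPKM in Control (log2 fold -1.15, adjusted p = 0.01295). Fut2, which fucosylates mucins and glycolipids, was at 6.66 and 3.58 FPKM in AIR, against 0.541 and 1.58 FPKM in Control (log2 fold 1.57, adjusted p = 0.0164). Muc4 and Fcgbp were below Control and Fut2 above it in both AIR libraries. The trefoil factor Tff3 (log2 fold -0.23, adjusted p = 0.583) and the goblet factor Spdef (0.03, adjusted p = 0.933) did not pass. Of 21 enteroendocrine genes 3 fell and 2 rose (median 0.04). Neurog3, which specifies the lineage, had 2.05 and 2.37 FPKM in AIR, against 4.73 and 4.85 FPKM in Control (log2 fold -0.85, adjusted p = 0.0123). Tph1, which starts serotonin synthesis, was at 4.05 and 3.35 FPKM in AIR, against 1.75 and 2.21 FPKM in Control (log2 fold 0.66, adjusted p = 0.0312), and the granule protein Chga did not pass (log2 fold -0.32, adjusted p = 0.183). Goblet genes called lower numbered 1 without AIR replicate 3, 6 without Control replicate 2, and 14 using the series-table values. Goblet genes called higher numbered 0 without AIR replicate 1, 1 without Control replicate 2 or AIR + MPLA replicate 1 or 3, 4 with the GC correction, and 5 without Control replicate 3. Enteroendocrine genes called lower numbered 0 without AIR replicate 1, 1 with RLE scaling or with the GC correction or without AIR + MPLA replicate 1 or 3, and 8 using the series-table values. Enteroendocrine genes called higher numbered 0 without AIR replicate 1 or AIR + MPLA replicate 1 or 3, 1 without AIR replicate 3, and 5 with the GC correction.

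Among genes of mucosal defence 4 of 31 tested rose and 8 fell. Lcn2 (lipocalin 2), which withholds iron from bacteria, had 17.5 and 13.2 FPKM in AIR, against 1.51 and 3.56 FPKM in Control, a log2 fold of 2.26 (SE 0.313, adjusted p = 0.00794). S100a8, a calprotectin subunit abundant in neutrophils, was at 1.63 and 1.45 FPKM in AIR and is listed at 0 in both Control libraries, so it passed the filter only through the remaining libraries. Pigr, which carries immunoglobulin A across the epithelium, was at 329 and 411 FPKM in AIR, against 1112 and 921 FPKM in Control (log2 fold -1.46, adjusted p = 0.00836), and the scavenger protein Dmbt1 at 297 and 305 FPKM in AIR, against 907 and 536 FPKM in Control (log2 fold -1.21, adjusted p = 0.0223). Lcn2 and S100a8 were above Control in both AIR libraries, Pigr and Dmbt1 below it. The lectin Reg3b had a log2 fold of 1.39 and did not pass (adjusted p = 0.0509). Both neutrophil markers that passed the filter were under 1 FPKM in both Control libraries. Without the members under 1 FPKM in both libraries of a group, 3 in AIR and 5 in Control, 1 of 23 rose and 5 fell. Defence genes called lower numbered 0 without AIR replicate 1, 4 without AIR replicate 3, and 5 with the GC correction. Defence genes called higher numbered 0 without AIR replicate 1, and 8 without Control replicate 3. Dmbt1 was not called with the GC correction (adjusted p = 0.0525).

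Lipid uptake and lipoprotein genes of mature enterocytes were called higher more often than lower. Of 32 tested genes 9 rose and 2 fell (median log2 fold 0.53), and the 35 listed genes summed to 21479.8 and 16398 FPKM in AIR, against 7530.1 and 9843 FPKM in Control. The fatty acid transporter Cd36 had 25.5 and 11.3 FPKM in AIR, against 2.95 and 1.44 FPKM in Control, a log2 fold of 2.54 (SE 0.378, adjusted p = 0.00906). Sar1b, which carries chylomicrons out of the endoplasmic reticulum, was at 277 and 239 FPKM in AIR, against 104 and 108 FPKM in Control, a log2 fold of 1.27 (SE 0.171, adjusted p = 0.00755). The structural apolipoprotein Apob had 209 and 99.4 FPKM in AIR, against 60.4 and 31.8 FPKM in Control (log2 fold 1.70, adjusted p = 0.0253). All 3 genes were above Control in both AIR libraries. Apoa1 was at 5908 and 3748 FPKM in AIR, against 1554 and 2425 FPKM in Control (log2 fold 1.28, adjusted p = 0.0366), the fatty acid binding protein Fabp1 at 2907 and 4143 FPKM in AIR, against 1602 and 1482 FPKM in Control (log2 fold 1.17, adjusted p = 0.0193) and Aldh1a1, which makes retinoic acid, at 111 and 149 FPKM in AIR, against 69.1 and 32.5 FPKM in Control (log2 fold 1.42, adjusted p = 0.0283). Npc1l1, which takes up cholesterol, fell, at 18.3 and 20.8 FPKM in AIR, against 48.1 and 52.6 FPKM in Control, a log2 fold of -1.32 (SE 0.149, adjusted p = 0.00546). Apoa4 (1.94, adjusted p = 0.0517) and the lipid transfer protein Mttp (0.57, adjusted p = 0.111) did not pass. Lipid genes called lower numbered 0 without AIR replicate 1, 1 without AIR replicate 3, and 7 using the series-table values. Lipid genes called higher numbered 0 without AIR replicate 1, 5 without AIR replicate 3 or AIR + MPLA replicate 1 or 3, and 16 with the GC correction.

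Brush border and transporter genes split by member. Of 29 tested brush border genes 3 rose and 5 fell (median log2 fold -0.29, or -0.01 with the GC correction and -0.14 with RLE scaling). Over all tested genes 8.05% rose and 18.7% fell, so these counts lay near the background. The transporter counts that follow are to be read beside the same shares. The disaccharidase Sis (sucrase-isomaltase) had 418 and 499 FPKM in AIR, against 249.7 and 115 FPKM in Control (log2 fold 1.43, adjusted p = 0.0279). Enpp7, which digests sphingomyelin, was at 2.61 and 3.35 FPKM in AIR, against 15.7 and 26.1 FPKM in Control (log2 fold -2.43, adjusted p = 0.00546), and the peptidase Naaladl1 at 5.65 and 10.8 FPKM in AIR, against 29.6 and 32.8 FPKM in Control (log2 fold -1.86, adjusted p = 0.00894). Sis was above Control in both AIR libraries, Enpp7 and Naaladl1 below it. Among sugar, peptide and amino acid transporters 2 of 24 rose and 6 fell: the neutral amino acid carrier Slc6a19 rose (log2 fold 1.06), and the glutamate carrier Slc1a1 was at 6.15 and 8.19 FPKM in AIR, against 25.1 and 18.6 FPKM in Control (log2 fold -1.48, adjusted p = 0.00755). The purine nucleoside carrier Slc28a2 had 153 and 34.8 FPKM in AIR, against 7.25 and 19.1 FPKM in Control (log2 fold 2.53, adjusted p = 0.0414). In ion and fluid transport 4 of 36 rose and 8 fell. The bicarbonate carrier Slc4a7 was at 46.9 and 31.7 FPKM in AIR, against 16.6 and 10.3 FPKM in Control (log2 fold 1.49, adjusted p = 0.0128), and S100g, the calcium-binding calbindin of enterocytes, at 87.9 and 29.8 FPKM in AIR, against 168 and 379.7 FPKM in Control (log2 fold -2.28, adjusted p = 0.0254). Slc4a7 lay above Control and S100g below it in both AIR libraries. Of 32 junction genes 9 fell and 1 rose, with the cation-channel claudin Cldn15 at 99.1 and 135 FPKM in AIR, against 249.96 and 310.1 FPKM in Control (log2 fold -1.26, adjusted p = 0.0124) and E-cadherin, Cdh1, at 94.2 and 66.05 FPKM in AIR, against 159.98 and 124 FPKM in Control (log2 fold -0.83, adjusted p = 0.0358). Brush border genes called lower numbered 1 without AIR replicate 1, 8 without Control replicate 2, and 12 using the series-table values. Brush border genes called higher numbered 0 without AIR replicate 1, and 7 using the series-table values. Nutrient transporters called lower numbered 0 without AIR replicate 1, 2 without AIR replicate 3, 3 with RLE scaling or with the GC correction or without Control replicate 3 or AIR + MPLA replicate 1 or 3, and 11 using the series-table values. Nutrient transporters called higher numbered 0 without Control replicate 3 or AIR replicate 1, 1 without AIR + MPLA replicate 1 or 3, 4 using the series-table values, and 5 with the GC correction. Ion transport genes called lower numbered 3 without AIR replicate 1. Ion transport genes called higher numbered 0 without AIR replicate 1, and 7 with the GC correction. Junction genes called lower numbered 0 without AIR replicate 1, 4 without AIR replicate 3, and 5 with RLE scaling or without AIR + MPLA replicate 1 or 3. Junction genes called higher numbered 0 without AIR replicate 1 or 3 or AIR + MPLA replicate 1 or 3, and 3 with the GC correction or using the series-table values. Calls were lost by Slc28a2 (adjusted p = 0.0592) and Cdh1 (adjusted p = 0.0946) with the GC correction, by Slc28a2 (adjusted p = 0.0578) using the series-table values and by Cdh1 (adjusted p = 0.0634) with RLE scaling.

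**Figure D5:**
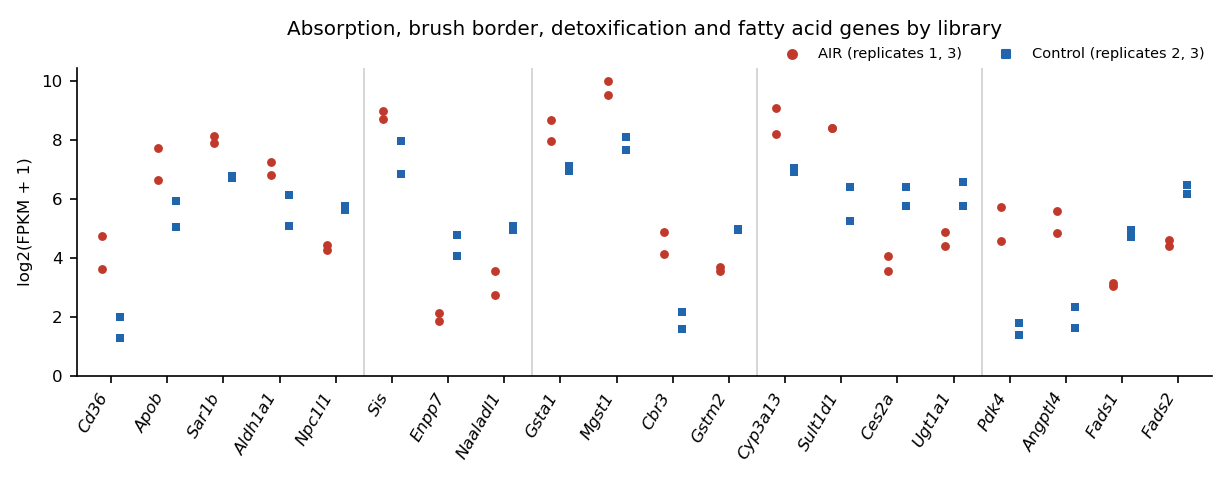
Level on log2(FPKM + 1) (y axis) of genes of lipid absorption, brush border, glutathione, drug metabolism and fatty acid handling in each library, red dots for the 2 AIR libraries and blue squares for the 2 Control libraries. In each gene plotted the AIR dots lie wholly above or wholly below the Control squares, as in Pdk4, with 52.2 and 22.7 FPKM in AIR and 2.49 and 1.58 FPKM in Control.

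Glutathione and drug-metabolising enzymes changed in both directions. Of 48 tested glutathione and NRF2 genes 8 rose and 6 fell (median log2 fold -0.05, or 0.14 with the GC correction and 0.10 with RLE scaling). Mgst1, a membrane-bound glutathione transferase, had 728 and 1028 FPKM in AIR, against 274 and 198 FPKM in Control (log2 fold 1.89, adjusted p = 0.00754). Cbr3, a carbonyl reductase, was at 28.1 and 16.5 FPKM in AIR, against 2.017 and 3.43 FPKM in Control (log2 fold 2.63, adjusted p = 0.00755), and Gclc, the catalytic subunit that starts glutathione synthesis, at 52.2 and 31.7 FPKM in AIR, against 19.7 and 15.4 FPKM in Control (log2 fold 1.18, adjusted p = 0.01799). AIR was above Control in all 3 without overlap. Gstm2, of the mu class, was lower, at 11.9 and 10.6 FPKM in AIR, against 30.8 and 29.5 FPKM in Control (log2 fold -1.35, adjusted p = 0.00841), and Nfe2l2, which encodes NRF2 itself, fell with a log2 fold of -0.56 (adjusted p = 0.0418). The NRF2 targets Nqo1 (0.48, adjusted p = 0.0817) and Gclm (0.09, adjusted p = 0.709) did not pass. The antioxidant response core TGACNNNGC was in 2 of 6 promoters of called-higher members (33.3%), in 11 of 36 of the others (30.6%) and in 1447 of all (17.1%). Of 44 cytochrome P450, glucuronyl and sulfotransferase genes 7 rose and 5 fell. The sulfotransferase Sult1d1 had 337 and 336 FPKM in AIR, against 83.7 and 36.6 FPKM in Control, a log2 fold of 2.58 (SE 0.347, adjusted p = 0.00755), and the P450 enzyme Cyp3a13 541 and 295 FPKM in AIR, against 130.4 and 121 FPKM in Control (log2 fold 1.66, adjusted p = 0.01201). The carboxylesterase Ces2a was at 10.7 and 15.6 FPKM in AIR, against 52.95 and 82.95 FPKM in Control (log2 fold -2.27, adjusted p = 0.00836), and Ugt1a1, which conjugates bilirubin, at 20.001 and 28.4 FPKM in AIR, against 93.1 and 53.5 FPKM in Control (log2 fold -1.53, adjusted p = 0.0142). The first pair was above Control, the second below it. Glutathione genes called lower numbered 0 without AIR replicate 1, 2 without AIR replicate 3, 3 with RLE scaling or with the GC correction or without AIR + MPLA replicate 1 or 3, 11 without Control replicate 2, and 16 using the series-table values. Glutathione genes called higher numbered 3 without AIR replicate 1. P450 and conjugating enzymes called lower numbered 0 without AIR replicate 1, and 8 using the series-table values. P450 and conjugating enzymes called higher numbered 0 without AIR replicate 1, 4 without AIR replicate 3, and 18 using the series-table values. Transferases of 1 class are close paralogs, so their single values are uncertain. Nfe2l2 was not called with the GC correction (adjusted p = 0.0504) or RLE scaling (adjusted p = 0.116), and the log2 fold of Sult1d1 was 1.66 with the GC correction.

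In fatty acid metabolism the widest differences were in regulators. Pdk4 (chr6:5483351-5496278), a kinase that turns glucose oxidation down when fatty acids are used, had 52.2 and 22.7 FPKM in AIR, against 2.49 and 1.58 FPKM in Control, a log2 fold of 3.57 (SE 0.386, adjusted p = 0.00546). Angptl4, an induced inhibitor of lipoprotein lipase, was at 46.7 and 27.9 FPKM in AIR, against 4.07 and 2.09 FPKM in Control, a log2 fold of 3.23 (SE 0.3398, adjusted p = 0.00537). Both AIR libraries were far above both Control libraries in these PPAR targets. Their list as a whole did not follow: 4 of 34 tested genes rose and 4 fell (median log2 fold -0.25, or -0.0015 with the GC correction, -0.11 with RLE scaling and -0.14 using the series-table values). The carnitine transferases Cpt1a (log2 fold -0.82) and Cpt2, at 31.2 and 31.3 FPKM in AIR, against 58.995 and 61.8 FPKM in Control (log2 fold -0.93, adjusted p = 0.0125), were among those that fell. In sterol and fatty acid synthesis 6 of 36 rose and 6 fell. The desaturases Fads2 and Fads1, which make polyunsaturated fatty acids, had 19.9 and 23.3 FPKM in AIR, against 70.5 and 88.5 FPKM in Control (log2 fold -1.83, adjusted p = 0.00453) and 7.24 and 7.86 FPKM in AIR, against 24.9 and 29.6 FPKM in Control (log2 fold -1.72, adjusted p = 0.00453). Both were lower in AIR without overlap. PPAR targets called lower numbered 0 without AIR replicate 1, 2 without AIR + MPLA replicate 1 or 3, 7 without Control replicate 2, and 12 using the series-table values. PPAR targets called higher numbered 2 without AIR replicate 1, 8 without Control replicate 2, and 10 using the series-table values. Sterol and fatty acid genes called lower numbered 2 without AIR replicate 1, 3 without AIR replicate 3, and 14 using the series-table values. Sterol and fatty acid genes called higher numbered 0 without AIR replicate 1, 1 without AIR replicate 3, and 11 using the series-table values. Cpt1a was not called with the GC correction (adjusted p = 0.0898).

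Smaller groups held further clear members. The heat shock protein Hsph1, a co-chaperone of HSP70, had 3.38 and 3.48 FPKM in AIR, against 15.1 and 16.8 FPKM in Control, a log2 fold of -1.94 (SE 0.145, adjusted p = 0.00405), among 17 tested genes of which 2 rose and 3 fell. In the circadian clock 4 of 16 fell and none rose. The clock output factor Dbp had 1.77 and 2.25 FPKM in AIR, against 11.2 and 15.7 FPKM in Control, a log2 fold of -2.25 (SE 0.199, adjusted p = 0.00453), and the clock repressor Nr1d1 8.81 and 5.24 FPKM in AIR, against 13.4 and 23.8 FPKM in Control (log2 fold -1.27, adjusted p = 0.03203). None of these overlapped between groups, and whether the groups were collected at the same hour is not given in the sources used here. Of the 15 largest rises and 15 largest falls, several belong to no list. Rab30, a GTPase of the Golgi, had 23.8 and 10.6 FPKM in AIR, against 0.4803 and 0.943 FPKM in Control (log2 fold 3.32, adjusted p = 0.00546). Atg9b, an autophagy scramblase, was at 12.7 and 4.71 FPKM in AIR, against 0 and 0.119 FPKM in Control (log2 fold 3.07, adjusted p = 0.00615), and Slc25a4, a mitochondrial carrier of ADP and ATP, at 87.1 and 78.7 FPKM in AIR, against 12.2 and 8.06 FPKM in Control (log2 fold 2.94, adjusted p = 0.00405). All 3 were above Control in both AIR libraries. Rab30 and Atg9b were under 1 FPKM in both Control libraries, so they passed the filter only through the remaining libraries. Dio1, a deiodinase that activates thyroid hormone, was at 1.01 and 1.06 FPKM in AIR, against 6.59 and 19.1 FPKM in Control (log2 fold -2.60, adjusted p = 0.00979) and the nuclease Dnase1 at 0.622 and 2.46 FPKM in AIR, against 9.73 and 17.4 FPKM in Control (log2 fold -2.57, adjusted p = 0.00929), both below Control in both AIR libraries. Few calls were made in the nuclear-encoded respiratory chain, with 1 of 49 tested genes higher and 3 lower, and the TLR4 pathway, with 1 of 23 higher and 2 lower. Heat shock genes called lower numbered 1 without AIR replicate 1, and 7 using the series-table values. Heat shock genes called higher numbered 0 without AIR replicate 1 or 3, 1 without AIR + MPLA replicate 1 or 3, 4 using the series-table values, and 5 without Control replicate 2. Clock genes called lower numbered 1 without AIR replicate 1 or 3, and 2 with RLE scaling. Clock genes called higher numbered 2 with RLE scaling, 3 with the GC correction or without Control replicate 2, and 5 using the series-table values. Respiratory genes called lower numbered 0 without AIR replicate 1 or 3 or AIR + MPLA replicate 1 or 3, 1 with RLE scaling, 12 without Control replicate 2, and 26 using the series-table values. Respiratory genes called higher numbered 0 without Control replicate 3 or AIR replicate 1 or 3 or AIR + MPLA replicate 1 or 3, and 4 using the series-table values. TLR4 pathway genes called lower numbered 0 with RLE scaling or without AIR replicate 1 or 3 or AIR + MPLA replicate 1 or 3, 1 with the GC correction or without Control replicate 3, 6 without Control replicate 2, and 8 using the series-table values. TLR4 pathway genes called higher numbered 0 without AIR replicate 1 or 3, 2 with RLE scaling or with the GC correction, 4 without Control replicate 2, and 6 using the series-table values. Nr1d1 was not called with RLE scaling (adjusted p = 0.0503).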

How the data were processed

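RNA-seq values of 6 libraries of mouse intestinal crypts were used. Per the labels' protocols crypts were flash frozen, RNA was extracted with Trizol and libraries were made with the Illumina TruSeq RNA kit. The submitters' processing notes name Trimmomatic, HISAT2, Cufflinks and HTSeq, without versions, and the build GRCm38.p6. The deposited values are FPKM per gene, computed by the authors, in 1 file per sample and a table of the series. The column of each sample file headed as counts holds FPKM too, equal to the series table within 1e-06 for 5 of 6 libraries. The sources used here do not say whether counting used strand, and reads of antisense partners cannot be told apart. FPKM totals were 398242 and 419566 in AIR and 381669 and 492247 in Control, and 9997 to 10179 genes reached 1 FPKM in these 4 libraries. Read numbers are unknown and counting intervals are not given. Relative to Control replicate 3, depth estimated from the steps of low values was 0.868 and 0.740 in AIR and 0.921 in Control replicate 2. Defensins took 2.04% and 2.15% of FPKM in AIR, against 5.02% and 10.8% in Control.

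Groups and replicate numbers came from sample titles. A test for read counts had been planned first; because the values are FPKM, the planned fall-back was used. On log2(FPKM + 1), the 3 groups of all 6 libraries were fitted together with limma 3.58.1 (R 4.3.3), which leaves 3 residual degrees of freedom, with trend and robust empirical Bayes. Genes had to reach 1 FPKM in at least 2 libraries. The Benjamini-Hochberg adjustment ran over all 10415 tested genes, with a threshold of 0.05. An exact permutation test of 2 against 2 libraries cannot go below p = 0.333 and was not used. Gene lists (63, with 1855 of 1891 entries in the files), the rule for named genes and the alternatives were chosen with earlier results of these data known. The rule took the 15 largest rises and 15 largest falls among called genes, without predicted genes, whose groups did not overlap and whose higher group averaged 5 FPKM or more, the 2 called members of smallest p per list and direction, and a fixed set; other members are named to show a list's range, and some named genes are left out. Alternatives were RLE and upper-quartile scaling, no filter or 5 FPKM, a pseudocount of 0.1, the 4 libraries alone, each library left out, the series-table values of Control replicate 2, and a GC correction (a lowess trend of span 0.3 against transcript GC, known for 99.4% of tested genes). Coordinates and promoters came from RefSeq tables of GRCm38.p6, matched by gene ID for 21727 of 21878 genes; 27 symbols turned into dates were restored by ID. Python 3.11.15 with pandas 2.3.3 and matplotlib 3.10.9 made tables and figures. The fit was tested on simulated data. The AIR + MPLA comparisons are not analysed here.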

Additional observations from a re-analysis of the deposited data

How the results depend on the processing

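With all libraries and FPKM as deposited, 2786 genes were called, 838 higher and 1948 lower in AIR. Leaving out 1 library at a time gave 124 to 4329 calls, 49 to 1689 higher and 75 to 2640 lower. The lowest counts came without AIR replicate 1 and the highest without Control replicate 2. Leaving out AIR replicate 3 gave 933 calls, and leaving out AIR + MPLA replicate 1 or 3 gave 1438 or 1436. Where this left a group with 1 library, its spread was assumed equal to that of the remaining groups. The 4 libraries alone gave 1427 calls, 458 higher and 969 lower. Control replicate 2 taken from the series table gave 6490, with 2606 higher and 3884 lower, and together with the GC correction 5040, with 2469 higher. Fewer genes were lower with RLE scaling (1184), upper-quartile scaling (1267) and the GC correction (1251), and the lower share of calls was then 50.6%, 54.4% and 50.6%, beside 69.9%. Without the filter 2171 of 16529 genes were called, at a filter of 5 FPKM 2143 of 7355, and with a pseudocount of 0.1 2791. Of 187 named called genes, 165 stayed called with the GC correction, 184 of 186 with the series-table values, 175 with RLE scaling, 156 without the filter and 33 without AIR replicate 1. Among these named genes Hprt, of a salvage enzyme, at a log2 fold of 0.59, was the 1 whose sign turned, to -0.0879 with the series-table values and the GC correction together. The causes of these shifts were not tested. No paired analysis was possible because AIR (replicates 1 and 3) and Control (replicates 2 and 3) share only 1 replicate number. The depth in reads is unknown, so genes of low FPKM carry a counting error that cannot be given here.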

Other observations

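Genes of the unfolded protein response, which matches the folding capacity of the endoplasmic reticulum to its load, gave 5 calls lower and 2 higher among 34 tested (median log2 fold -0.16, or -0.02 with RLE scaling). Over all tested genes 18.7% were lower and 8.05% higher, so this list held no excess of calls. The chaperone Hyou1 had 18.3 and 16.4 FPKM in AIR, against 34.4 and 40.8 FPKM in Control (log2 fold -1.07, adjusted p = 0.00952), and the disulfide isomerase Pdia4 18.9 and 19.5 FPKM in AIR, against 33.7 and 38.3 FPKM in Control (log2 fold -0.87, adjusted p = 0.0107). Dnajb9, a co-chaperone induced through IRE1, was at 41.7 and 26.2 FPKM in AIR, against 15.7 and 17.7 FPKM in Control (log2 fold 0.95, adjusted p = 0.0306), and Ppp1r15a, which reverses the translational block of this response, at 4.49 and 2.74 FPKM in AIR, against 1.37 and 1.81 FPKM in Control (log2 fold 0.81, adjusted p = 0.0367). The chaperones shown lay below Control and the 2 others above it in both AIR libraries. Genes of this list called lower numbered 0 without AIR replicate 1, 2 with RLE scaling or without AIR replicate 3 or AIR + MPLA replicate 1 or 3, 3 with the GC correction, 11 without Control replicate 2, and 16 using the series-table values. Genes of this list called higher numbered 0 without Control replicate 2 or AIR replicate 1, 1 without Control replicate 3 or AIR + MPLA replicate 1 or 3, and 4 using the series-table values. Dnajb9 was not called with the GC correction (adjusted p = 0.251).

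Among glycolysis and hypoxia genes 3 of 28 tested were higher and 4 lower. For this and the lists that follow, the shares over all tested genes were 8.05% higher and 18.7% lower. The hypoxia- and stress-induced Ndrg1 had 75.3 and 50.7 FPKM in AIR, against 32.6 and 20.5 FPKM in Control (log2 fold 1.23, adjusted p = 0.0204), and Pfkl, a phosphofructokinase of glycolysis, 6.46 and 6.37 FPKM in AIR, against 12.01 and 14.4 FPKM in Control (log2 fold -0.93, adjusted p = 0.0132). Neither overlapped between groups. Of 19 histone genes 4 were lower and 1 higher, with the replication-dependent Hist1h3c at 0.649 and 0.7201 FPKM in AIR, against 2.77 and 5.21 FPKM in Control (log2 fold -1.52, adjusted p = 0.0144) and Hist1h4i at 30.9 and 29.9 FPKM in AIR, against 10.2 and 16.5 FPKM in Control (log2 fold 1.17, adjusted p = 0.0149). Iron-handling genes held 1 call higher and 3 lower among 20 tested, with the iron chaperone Pcbp1 at 131 and 119 FPKM in AIR, against 232 and 280.03 FPKM in Control (log2 fold -1.03, adjusted p = 0.0117). In the YAP and TEAD list 3 of 18 were lower and 1 higher, and Vgll4, a competitor of YAP for TEAD, was at 5.12 and 7.83 FPKM in AIR, against 13.2 and 17.8 FPKM in Control (log2 fold -1.15, adjusted p = 0.01498). Of the 6 tested macrophage and dendritic cell markers 3 were lower. Glycolysis and hypoxia genes called lower numbered 0 without AIR replicate 1 or 3, 1 with the GC correction or without AIR + MPLA replicate 1 or 3, 2 with RLE scaling or without Control replicate 3, 8 without Control replicate 2, and 11 using the series-table values. Glycolysis and hypoxia genes called higher numbered 0 without AIR replicate 1, and 6 with the GC correction or using the series-table values. Histone genes called lower numbered 1 without AIR replicate 1, and 2 without AIR replicate 3. Histone genes called higher numbered 0 without AIR replicate 1, and 2 with RLE scaling or with the GC correction. Iron genes called lower numbered 0 without AIR replicate 1 or 3, and 5 using the series-table values. Iron genes called higher numbered 0 without AIR replicate 1, 3 with RLE scaling or without Control replicate 2 or AIR replicate 3, and 4 using the series-table values. YAP and TEAD genes called lower numbered 0 without AIR replicate 1, 1 with the GC correction or without AIR replicate 3 or AIR + MPLA replicate 1 or 3, and 5 using the series-table values. YAP and TEAD genes called higher numbered 0 without Control replicate 3 or AIR replicate 1, 2 with RLE scaling or without AIR replicate 3, 4 without Control replicate 2, and 6 using the series-table values. Macrophage and dendritic cell markers called lower numbered 0 with the GC correction or without Control replicate 3 or AIR replicate 1 or 3 or AIR + MPLA replicate 1 or 3. Macrophage and dendritic cell markers called higher numbered 1 with the GC correction. The AIR + MPLA libraries lay at -15.3 and -18.6 on the first principal component, on which AIR lay at 40.7 and 37.3 and Control at -10.0 and -34.1.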
